A study of Mus musculus with 6 samples.

Results

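The enzymes and transporters that take glucose through glycolysis and the pentose phosphate pathway were followed in mouse cortical cultures after knockdown of Neurod2, which encodes a basic helix-loop-helix transcription factor of cortical neurons. The set was chosen by function, with earlier results of these data known. It lists 37 genes, and 30 of them had a row among the 32357 rows of the expression table. The table names no genes, so a gene was given the row whose mm10 span overlapped its own by 0.5 or more of the length both cover together. Primary cortical cells came from E14.5 embryos of the Balb/c strain and were nucleofected with an shRNA plasmid built in pSuperneoGFP, which also carries GFP. The knockdown group held 4 libraries, 2 with shNeurod2-1 and 2 with shNeurod2-2, and the control group held 2 libraries with a non-silencing (NS) shRNA. The labels give 4 days in vitro and the methods give 5. The labels do not say if replicate libraries were made from different cultures, and no sorting of transfected cells is described. In such bulk RNA, fewer cells of a type and less RNA per cell cannot be told apart.

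Glycolysis splits glucose into pyruvate in the cytosol and yields ATP and NADH, and lactate dehydrogenase turns pyruvate into lactate to recover NAD+. The pentose phosphate pathway branches off at glucose 6-phosphate: its oxidative arm makes NADPH, used for lipid synthesis and against oxidative damage, and its non-oxidative arm exchanges carbon units between sugar phosphates and returns them to glycolysis. In the brain astrocytes are known for high glycolysis and lactate release, and neurons for sending much of their glucose 6-phosphate through the pentose phosphate pathway.

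Levels are FPKM, fragments mapped per kilobase of transcript and scaled to library size, so they can be set side by side between genes. The authors' table holds 1 pooled FPKM value for the knockdown group and 1 for the NS group. There is therefore no SD, no read depth and no value of a single library or of a single shRNA. From these values no difference below could be tested, and "higher" and "lower" describe the pooled values only. Differences are given as log2((knockdown + 1)/(NS + 1)), where 1 FPKM was added to each value. This scale understates the change of genes near or under 1 FPKM. Neurod2 itself had 60.3 FPKM in the knockdown group and 104.8 FPKM in the NS group, a ratio of 0.575, so its message was lower in the group labelled as knockdown.

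One enzyme stood far from all the others. Tkt, transketolase, which moves 2-carbon units between sugar phosphates in the non-oxidative arm, had 115 FPKM in the knockdown group against 594 FPKM in the NS group, 5.18-fold lower. It was the only member past 1.5-fold in either direction. No member was over 1.5-fold higher. Among the 21649 rows with a value above 0 in either group, 1.27% were over 1.5-fold lower and 1.27% over 1.5-fold higher, and a single gene of 30 does not set the list apart from the table. The other 29 members lay between -0.43 and 0.17 on the log2 scale.

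**Figure D1:**
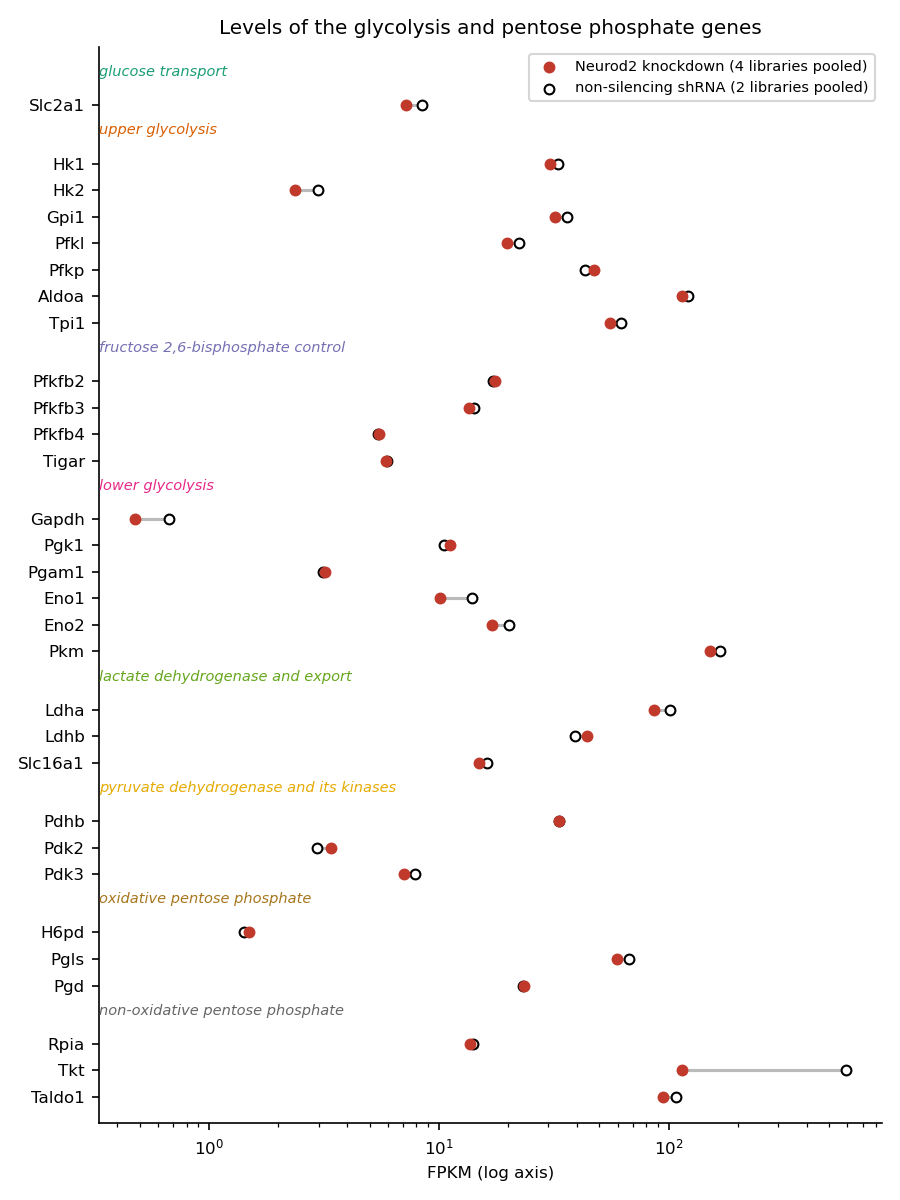
FPKM of the 30 members on a log axis, grouped by role. Filled points are the pooled value of the 4 knockdown libraries and open points that of the 2 NS libraries, joined by a grey line. The Tkt points lie at 115 and 594 FPKM, and the 2 points of most other genes nearly touch.

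Tkt lies on the plus strand at chr14:30548359-30574720 in mm10, and its row spans chr14:30549131-30574726. The row holds the microRNA gene Mir3076. The hairpin, at chr14:30572149-30572208, sits at the 3' end of intron 12 of Tkt-201, a transcript of 14 exons, and 1 base of it reaches into exon 13. Its sequence is shown because it overlaps the splice acceptor of the one member that stood apart. The mature microRNA is in capitals in the first line and its seed, bases 2 to 8, in the second (RefSeq, GRCm38.p6):
Mir3076 hairpin: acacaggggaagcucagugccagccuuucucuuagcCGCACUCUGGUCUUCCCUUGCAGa
mmu-miR-3076-3p: cGCACUCUggucuucccuugcag
The mature microRNA, at chr14:30572185-30572207, ends on the last base of the intron, with 0 bases between them, and its last letters, CAG, are those of the splice acceptor. The lower case a that follows in the hairpin is the first base of exon 13. No other of the 1679 mature mouse microRNAs in that table has the seed GCACUCU. The table gives no mature sequence for the opposite arm.

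Across the whole table, rows with a microRNA gene inside held a larger share past 1.5-fold than rows with no small RNA gene, in each of 3 ranges of level. This was counted over 12691 rows that Cuffdiff had marked as testable and that had a mean of at least 1 FPKM over both groups. A small RNA gene was taken as inside by position alone, on either strand, and rows that share a position were each counted. Of these rows, 1.97% were over 1.5-fold lower and 1.18% over 1.5-fold higher. With a mean of 100 FPKM or more, as for Tkt, 158 rows held a microRNA gene. Among them 46 were over 1.5-fold lower and 19 were over 1.5-fold higher. The log2 difference was at or below that of Tkt in 21, Tkt itself included. Of the 110 rows at that level with another kind of small RNA gene, 15 were over 1.5-fold lower and 9 over 1.5-fold higher. In 2 the difference was at or below that of Tkt. Of the 511 rows at that level with none, 20 were over 1.5-fold lower and 16 over 1.5-fold higher. In 7 the difference was at or below that of Tkt. In all, 41.1% of the microRNA rows at that level were past 1.5-fold, against 7.05% of the rows with no small RNA gene. Whether reads of a small RNA enter the value of Tkt was not tested.

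**Figure D2:**
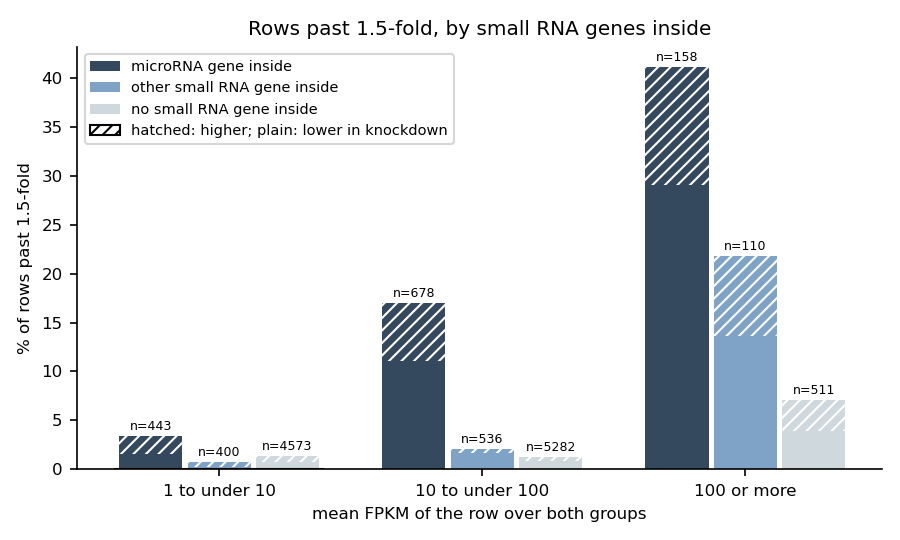
Share of rows past 1.5-fold, in percent, by mean FPKM and by the kind of small RNA gene inside the row. Plain parts of the bars are rows lower in the knockdown group and hatched parts rows higher in it; n is the number of rows. At 100 FPKM or more, the class and level of Tkt, the share is 41.1% with a microRNA gene inside and 7.05% with none.

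The rest of the pentose phosphate pathway was close to level. Taldo1, transaldolase, the partner of transketolase in the non-oxidative arm, had 94.4 FPKM in the knockdown group and 108 FPKM in the NS group. Rpia, which interconverts ribulose and ribose 5-phosphates, had 13.7 FPKM in the knockdown group and 14.1 FPKM in the NS group. In the oxidative arm Pgls, the lactonase, had 59.7 FPKM in the knockdown group and 67.2 FPKM in the NS group. All 3 were slightly lower in the knockdown group, with ratios of 0.975 for Rpia, 0.889 for Pgls and 0.872 for Taldo1. The span of the Pgls row reaches into Fam129c. Pgd, phosphogluconate dehydrogenase, which makes NADPH, had 23.5 FPKM in the knockdown group and 23.3 FPKM in the NS group. H6pd, the glucose 6-phosphate dehydrogenase of the endoplasmic reticulum, was low, with 1.49 FPKM in the knockdown group and 1.42 FPKM in the NS group. The log2 difference of these 5 genes ran from -0.20 to 0.05, against -2.36 for Tkt.

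The balance of the Tkt row to those of its pathway partners therefore differed between the groups. Whether reads of Mir3076 add to the Tkt row was not tested. The ratio of Tkt to Taldo1 was 1.21 in the knockdown group and 5.49 in the NS group, and the ratio of Tkt to Pgd was 4.87 in the knockdown group and 25.4 in the NS group. Tkt was above 99.1% of the rows compared in the NS group and above 95.1% of them in the knockdown group. Its knockdown value lay near those of Taldo1 and Aldoa, and its NS value stood above every other member in either group. The median log2 difference of the 6 pentose phosphate genes with a row was -0.10, and without Tkt, an alternative chosen after seeing the data, it was -0.03. The median over all 30 members was -0.11, against -0.03 over the 12691 rows.

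Glucose enters through facilitative transporters. Slc2a1, which encodes the transporter GLUT1, had 7.23 FPKM in the knockdown group and 8.46 FPKM in the NS group, a log2 difference of -0.20. It is the only other member whose row holds a small RNA gene, the microRNA gene Mir1957a, and at this level 3.39% of the 443 rows with a microRNA gene were past 1.5-fold.

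Most enzymes of upper glycolysis were a little lower in the knockdown group, 6 of the 7 with a row. Hk1, the main brain hexokinase, had 30.4 FPKM in the knockdown group and 33.1 FPKM in the NS group. Hk2, the inducible hexokinase, had 2.37 FPKM in the knockdown group and 2.98 FPKM in the NS group. Hk1 thus outweighed Hk2 by 12.8 times in the knockdown group and 11.1 times in the NS group. Gpi1, glucose 6-phosphate isomerase, had 32.1 FPKM in the knockdown group and 36.2 FPKM in the NS group. The phosphofructokinases, which commit sugar to glycolysis, went opposite ways: Pfkl had 19.8 FPKM in the knockdown group and 22.4 FPKM in the NS group, and Pfkp 47.3 FPKM in the knockdown group and 43.4 FPKM in the NS group. Pfkp was the one gene of this group that was higher, by 9.02%. Aldoa, the main aldolase, had 114 FPKM in the knockdown group and 121 FPKM in the NS group. Tpi1, triose phosphate isomerase, had 55.4 FPKM in the knockdown group and 61.8 FPKM in the NS group. None of the 7 lay outside -0.24 to 0.12 on the log2 scale. Hk1, Pfkl, Pfkp and Tpi1 each had a second, lower row at the same position, and the higher row is given. The span of the Aldoa row also overlaps the coding gene Fam57b, that of Pfkp overlaps Pitrm1 and that of Tpi1 overlaps Spsb2.

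The enzymes that set fructose 2,6-bisphosphate, the activator of phosphofructokinase, were nearly level. Pfkfb3, whose kinase activity makes most of this activator in many dividing cells, had 13.5 FPKM in the knockdown group and 14.2 FPKM in the NS group. Tigar, a phosphatase that removes it, had 5.87 FPKM in the knockdown group and 5.94 FPKM in the NS group. With Pfkfb2, also the higher of a pair of rows, and Pfkfb4, 2 of the 4 were below 0 and 2 above, between -0.07 and 0.04, the narrowest range of any role with more than 1 row. The span of the Pfkfb2 row also overlaps the coding genes Yod1 and Gm29427.

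Lower glycolysis held the member with the second lowest log2 difference. Eno1, the enolase found in most cells, had 10.1 FPKM in the knockdown group against 13.9 FPKM in the NS group, a log2 difference of -0.43, and 2.82% of the 12691 rows lay below it. On the plain ratio, 0.726 for Eno1, Gapdh was lower still, at 0.710. Eno2, the enolase of neurons, had 17.1 FPKM in the knockdown group and 20.3 FPKM in the NS group. Both enolases were lower, and the ratio of Eno1 to Eno2 was 0.593 in the knockdown group and 0.687 in the NS group. Pkm, pyruvate kinase, was the highest member outside the pentose phosphate pathway, with 151 FPKM in the knockdown group and 168 FPKM in the NS group. Pgk1, phosphoglycerate kinase, had 11.2 FPKM in the knockdown group and 10.5 FPKM in the NS group. Pgam1, phosphoglycerate mutase, had 3.21 FPKM in the knockdown group and 3.15 FPKM in the NS group. Gapdh, the dehydrogenase used as a loading control in many laboratories, was listed at only 0.477 FPKM in the knockdown group and 0.671 FPKM in the NS group, and Cuffdiff had not tested it.

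Several of these genes share sequence with other genes. Reads were 50 bases long, and for each gene the share of its 50-base stretches that also occur unchanged in transcripts of another gene was counted. The share was 68.0% for Pgk1, 58.4% for Gapdh, 49.5% for Eno1, 41.5% for Pgam1 and 30.3% for Pdhb, the highest among the members. The stretches of Gapdh were found in 222 other genes, 213 of them annotated as pseudogenes. Of the 30 members, 15 shared no stretch, Tkt among them, and 10 shared at least 10%. In the citric acid cycle list 2 of 16 genes shared at least 10%. The 10 members that shared at least 10% had a median log2 difference of -0.16 and the other 20 a median of -0.10. Their median level was 32.6 FPKM in the knockdown group and 34.8 FPKM in the NS group, and that of the other 20 was 16.0 FPKM in the knockdown group and 16.7 FPKM in the NS group. The 4 members with the highest shares, Pgk1, Gapdh, Eno1 and Pgam1, all lay below the median of those 20 in both groups. The rest of the 10 all lay above it in both groups. Pdhb, next in share, had 33.2 FPKM in the knockdown group and 33.5 FPKM in the NS group. How the counting placed reads that match several genes is not given in the sources used here, so the levels of Gapdh, Pgk1, Eno1 and Pgam1 are uncertain, and the part of shared reads in the low value of Eno1 was not tested.

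**Figure D3:**
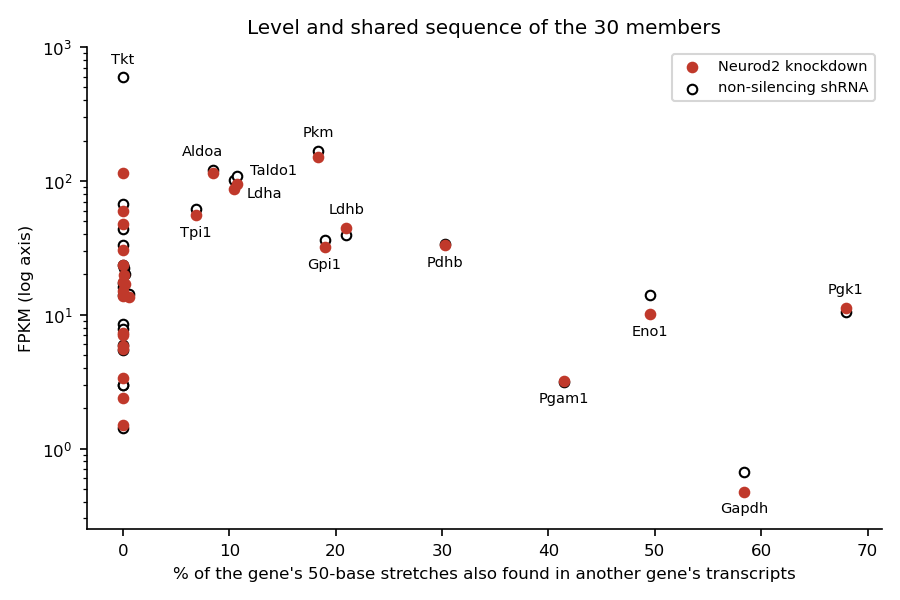
FPKM on a log axis against the percent of a gene's 50-base stretches that also occur in another gene's transcripts, for the 30 members. Filled points are the knockdown group and open points the NS group. Gapdh, at 58.4% shared, has the lowest level of all members in both groups, and Tkt shares none.

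At the lactate step the 2 isozymes went opposite ways. Ldha, whose subunit predominates in tissues that make lactate, had 86.4 FPKM in the knockdown group and 102 FPKM in the NS group. Ldhb, whose subunit predominates in tissues that use lactate, had 44.3 FPKM in the knockdown group and 39.2 FPKM in the NS group. Ldhb was the highest of all members on the log2 scale, at 0.17, and Ldha was among the lowest, at -0.23. The ratio of Ldha to Ldhb was 1.95 in the knockdown group and 2.60 in the NS group. Slc16a1, the monocarboxylate transporter MCT1 that carries lactate and pyruvate, had 14.9 FPKM in the knockdown group and 16.2 FPKM in the NS group.

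Pyruvate enters mitochondrial oxidation through pyruvate dehydrogenase, which its kinases switch off. Pdhb, a subunit of the enzyme, was level, with 33.2 FPKM in the knockdown group and 33.5 FPKM in the NS group. Of the kinases, Pdk2 had 3.39 FPKM in the knockdown group and 2.96 FPKM in the NS group. Pdk3 had 7.08 FPKM in the knockdown group and 7.88 FPKM in the NS group. Neither kinase passed 1.2-fold.

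Over all roles, 21 members were below 0 and 9 above. In the 12691 rows 58.4% were below 0, while the median of the 21649 rows with a value above 0 was 0.0018. Read against the median of the 12691 rows, -0.03, 19 members were below it and 11 above. At 1.2-fold with 1 FPKM added, 2 members were lower, Tkt and Eno1, and none was higher, and on the plain ratio, an alternative chosen after seeing the data, Hk2 and Gapdh joined them to make 4. With 1 FPKM added, 6.11% of the rows were over 1.2-fold lower and 3.92% over 1.2-fold higher. The enzymes of upper and lower glycolysis had a median of -0.15 over 13 genes. Of the 30 members, 14 lay below the lower quartile of the rows and 4 above the upper quartile.

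**Figure D4:**
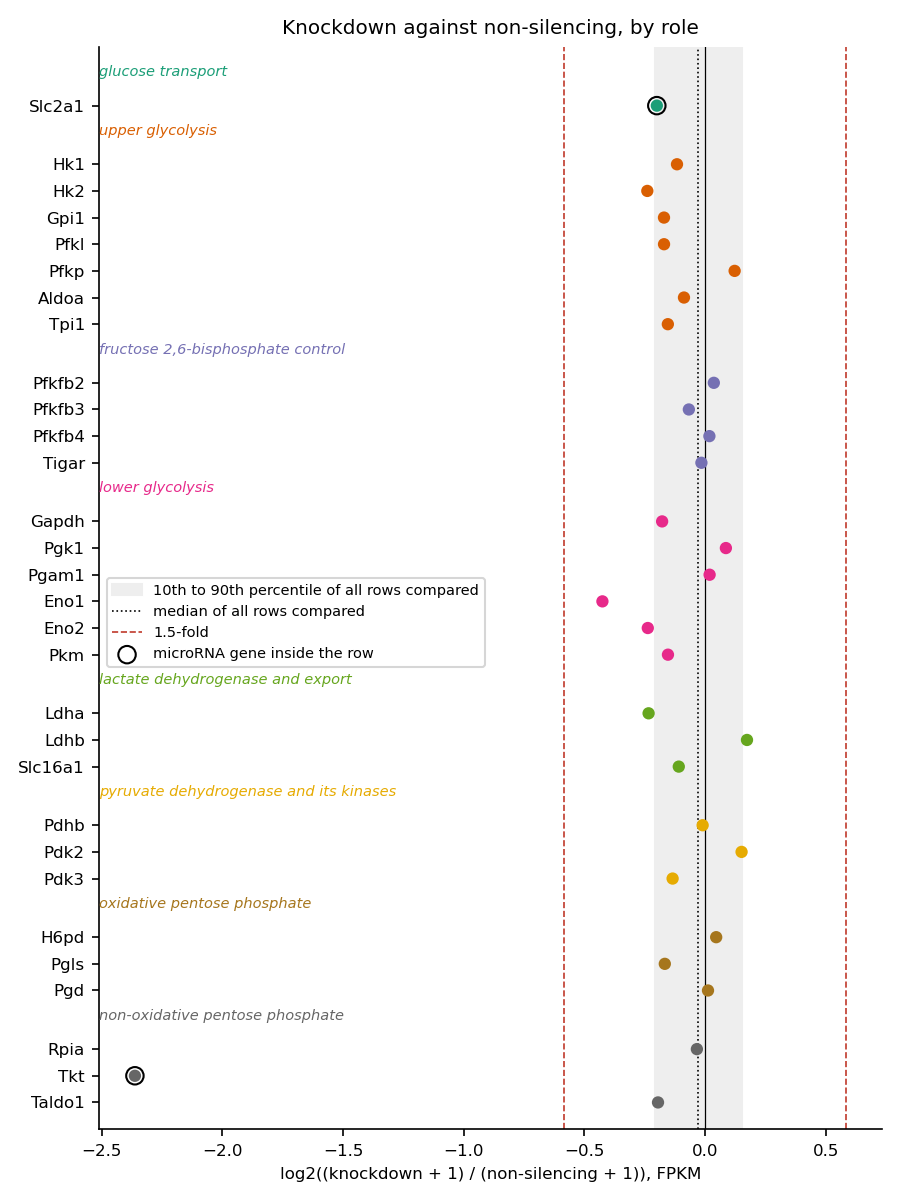
Log2 difference of each member, knockdown over NS with 1 FPKM added, grouped by role. The grey band runs from the 10th to the 90th percentile of the 12691 rows compared, -0.21 to 0.15, the dotted line is their median, -0.03, and dashed lines mark 1.5-fold. Circled points are rows with a microRNA gene inside, Slc2a1 and Tkt, and Tkt alone lies past a dashed line.

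Promoter windows, from 250 bases before to 50 after a RefSeq start site, were searched for ACGTG on both strands. ACGTG is a form of the core bound by hypoxia-inducible factors, which are known to drive many glycolysis genes. Other forms of the core were not searched. A window was found for 36 of the 37 listed genes, and 18 of these genes, 50.0%, had a match in at least 1 window. Of 27025 genes with a window in the table, 21.8% had one. Genes differ in their number of windows: by window, 42.3% of the 52 of the listed genes and 19.6% of all 32851 had a match. Ldha had the most, with 5, and its window is shown with the matches in capitals, plus strand, chr7:46845554-46845853 (RefSeq, GRCm38.p6):
Ldha promoter: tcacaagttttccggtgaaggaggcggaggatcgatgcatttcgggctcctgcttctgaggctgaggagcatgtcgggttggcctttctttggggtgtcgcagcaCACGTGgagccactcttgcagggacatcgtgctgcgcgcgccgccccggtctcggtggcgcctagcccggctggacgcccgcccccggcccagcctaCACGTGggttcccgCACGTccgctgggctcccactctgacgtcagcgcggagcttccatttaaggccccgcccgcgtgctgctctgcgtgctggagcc
Each CACGTG holds ACGTG on both strands and was counted as 2 matches. A match describes letters only and is no binding site. The 15 members with a match and a row had a median log2 difference of -0.11, between -0.24 and 0.15, and the 15 without one a median of -0.15, between -2.36 and 0.17. Tkt and Eno1 had no match.

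Genes around these pathways were taken from 7 further lists, in which 102 of 115 genes had a row. Counted by the row taken for each gene, 1 was over 1.5-fold lower and 3 were over 1.5-fold higher. The median log2 difference of the 102 was -0.01. Each of the 3 higher genes had other rows at the same position that were taken as equally near, and all are given below. The 24 other glycolysis and glycogen entry enzymes held none past 1.5-fold with 1 FPKM added. Pgam2, the muscle phosphoglycerate mutase, passed it on the plain ratio, 1.51, with 1.55 FPKM in the knockdown group and 1.02 FPKM in the NS group. The higher of 2 rows at the position of Pgm2l1, which makes glucose 1,6-bisphosphate, had the largest log2 difference of that list, with 49.9 FPKM in the knockdown group and 34.6 FPKM in the NS group. Aldoc, the aldolase of astrocytes, had 76.5 FPKM in the knockdown group and 69.9 FPKM in the NS group. The 9 genes of mitochondrial pyruvate entry and the 16 other genes of ribose phosphate and NADPH metabolism also held none past 1.5-fold. In the NADPH list Idh1, cytosolic isocitrate dehydrogenase, had 273 FPKM in the knockdown group and 263 FPKM in the NS group. Dera, which cleaves deoxyribose phosphate, was the lowest there, with 3.09 FPKM in the knockdown group and 4.27 FPKM in the NS group.

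Among the rows taken for these lists, those past 1.5-fold mostly held a small RNA gene, as Tkt did. The row matched to Idh3b, a subunit of isocitrate dehydrogenase in the citric acid cycle, had 3817 FPKM in the knockdown group and 1891 FPKM in the NS group, and it holds 5 annotated small RNA genes and overlaps the coding gene Nop56. The row matched to the glucose transporter Slc2a12 had 833 FPKM in the knockdown group and 406 FPKM in the NS group, and that of Esrra, a nuclear receptor that drives mitochondrial genes, 70.7 FPKM in the knockdown group and 46.3 FPKM in the NS group. Each of these 2 rows holds a microRNA gene and reaches into another coding gene. Several rows lie at each of these 3 positions, 4 for Idh3b and 3 each for Slc2a12 and Esrra, and the one with the highest mean was taken, so the value may be that of another gene. The other 3 rows at Idh3b had 34.3, 44.5 and 867 FPKM in the knockdown group and 34.6, 47.9 and 0 FPKM in the NS group. The other 2 at Slc2a12 had 0.377 and 40.3 FPKM in the knockdown group and 0.370 and 43.2 FPKM in the NS group, and those at Esrra 14.2 and 15.5 FPKM in the knockdown group and 18.4 and 16.1 FPKM in the NS group. Of the 5 rows past 1.5-fold among the members and these lists, 4 held a small RNA gene, as did 14 of all 132 rows. This count depends on which row was taken where several lie at a position. The other rows at Slc2a12 and Esrra hold the same small RNA genes and were not past 1.5-fold. Nor were those at Idh3b with 34.3 and 44.5 FPKM in the knockdown group, while that with 867 FPKM was. Among the 5 rows, the one with no small RNA gene was that of Vegfa, the vascular growth factor induced by hypoxia. It had 20.0 FPKM in the knockdown group and 30.7 FPKM in the NS group. The other 15 genes of the hypoxia list lay between -0.29 and 0.13, and Hif1a, the oxygen-regulated factor, had 57.0 FPKM in the knockdown group and 54.0 FPKM in the NS group.

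**Figure D5:**
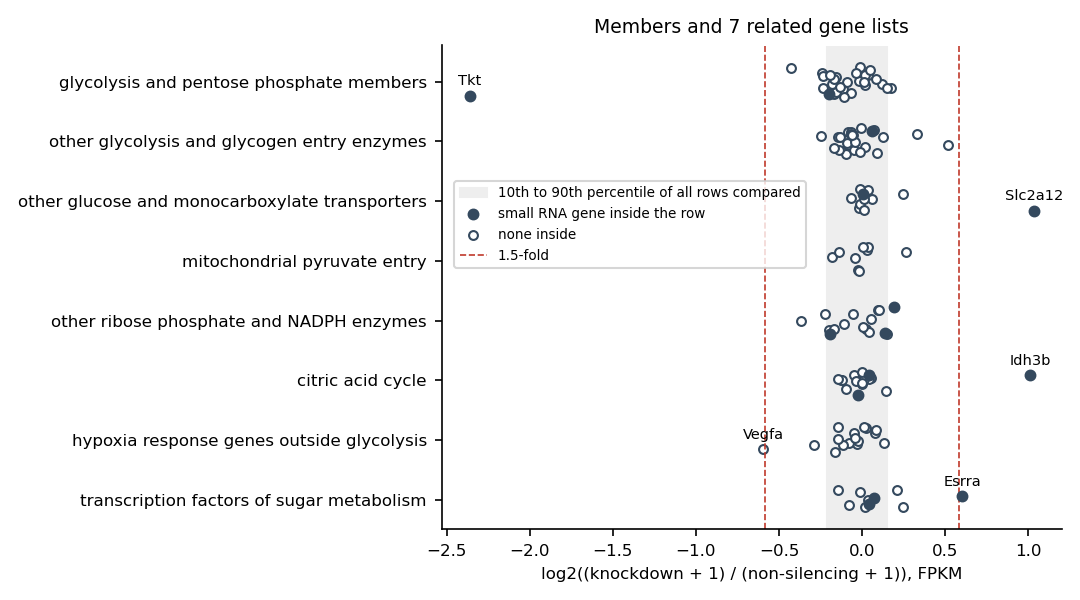
Log2 difference, knockdown over NS with 1 FPKM added, for the 30 members and the 7 related lists; points are spread vertically only to separate them. Filled points are rows with a small RNA gene inside, the grey band is the 10th to 90th percentile of the rows compared, and dashed lines mark 1.5-fold. Tkt, Slc2a12, Idh3b and Esrra are filled and Vegfa is open.

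Cell type markers were read beside these values, because sugar metabolism differs between cell types. The 7 neuron markers summed to 1997 FPKM in the knockdown group and 1863 FPKM in the NS group, led by Tubb3, and the 4 progenitor markers to 248 FPKM in the knockdown group and 250.5 FPKM in the NS group. The 6 astrocyte markers summed to 1383 FPKM in the knockdown group and 1234 FPKM in the NS group, but this sum rests on Fabp7, with 1227 FPKM in the knockdown group and 1057 FPKM in the NS group. Without Fabp7, left out after seeing the data, the sum was 156 FPKM in the knockdown group and 177 FPKM in the NS group, and 4 of the 6 markers were below 0. Gfap, the intermediate filament of astrocytes, was the only one of them past 1.5-fold, with 35.1 FPKM in the knockdown group and 57.4 FPKM in the NS group. The 6 markers of fibroblasts and mural cells summed to 6.10 FPKM in the knockdown group and 3.99 FPKM in the NS group. Col1a1, Col3a1 and Acta2 were over 1.5-fold higher, with 0.975, 0.765 and 1.28 FPKM in the knockdown group. They had 0.125, 0.171 and 0.409 FPKM in the NS group, so these values lie near or under 1 FPKM. In the same list Dcn had 1.56 FPKM in the knockdown group and 1.55 FPKM in the NS group, and Pdgfrb and Lum were lower, with 1.38 and 0.138 FPKM in the knockdown group and 1.56 and 0.165 FPKM in the NS group. The 6 oligodendrocyte lineage markers summed to 104 FPKM in the knockdown group and 110.4 FPKM in the NS group. The 2 interneuron markers with a row summed to 3.23 FPKM in the knockdown group and 3.16 FPKM in the NS group. Markers of microglia, endothelial cells and red blood cells were all under 1 FPKM in both groups, and C1qa, Cldn5, Cdh5, Hbb-bt, Hba-a1 and Hba-a2 were at 0 in the NS group. The part of cell makeup in the members' values was not tested.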

How the data were processed

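RNA from 6 libraries had been sequenced as 50 bp single-end reads. Per the labels and the study's methods, TopHat (genome mm10), Cufflinks and Cuffdiff had been run on them, with versions not given in the sources used here. Each row of the table deposited by the authors has 1 FPKM value per group, scaled for transcript length and for library size, beside the authors' own log2 fold change, test statistic, p-value and q-value; the p-values, q-values and test statistics were not used, and none of these columns is printed. Depth is unknown, and no single-library values were analysed, so no test was made and the planned leave-one-out and block fits could not be run.

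Spreadsheet software had turned some values into times. In 5028 rows the candidate FPKM pairs were listed and the pair kept whose log2 ratio gave the deposited fold change within 2e-05, so a restored pair matches that column by construction. This restored 4937 rows and left 91 open and unused; each of the 30 members' rows was intact or restored. The step was tested on simulated data.

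Rows were named from GENCODE M21 (GRCm38, the assembly of mm10) by overlap, whatever their test status and with no filter on level. Where several rows matched, the largest overlap was taken, then the higher mean. Hk1, Pfkl, Pfkp, Tpi1 and Pfkfb2 each had 2 rows at the same position, which position alone cannot assign; 19 genes of the related lists also had more than 1 row. A row was called at 1.5-fold, the fold threshold of the study. The genes named are all members, Neurod2, small RNA genes inside members' rows and, per list, up to 3 with the highest mean and up to 3 with the largest difference at a mean of at least 1 FPKM. Exceptions, named after their values were seen, are Col1a1, Col3a1, Lum and the markers at 0, and genes that a row also spans. The members and lists were chosen with earlier results of these data known. Analyses used Python 3.11.15, pandas 2.3.3 and numpy 2.4.6.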

Additional observations from a re-analysis of the deposited data

How the results depend on the processing

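The median log2 difference of the members lay between -0.12 and -0.08 under 10 alternatives, and that of the pentose phosphate genes between -0.17 and -0.03 under 10. The alternatives were a pseudocount of 0.1 FPKM or none, a mean of at least 1 or 10 FPKM, only rows with test status OK, an overlap of at least 0.8, the sum of all rows of a gene, centring on the median of the rows compared, and rows with no small RNA gene inside. Chosen after seeing the data were genes with under 10% of their 50-base stretches shared and, for the pentose phosphate genes, leaving out Tkt. The number of members over 1.5-fold lower stayed at 1 except that it was 0 among the 28 rows with no small RNA gene inside, which leaves out Tkt, 2 at a threshold of 1.2-fold and, chosen after seeing the data, 4 at 1.2-fold on the plain ratio (Tkt, Gapdh, Eno1 and Hk2). The number higher was 0 throughout. Leaving out single libraries was not possible because each group has 1 pooled value. No paired analysis was possible because the values are pooled over libraries. With unknown depth and no replicate values, no member's difference, that of Tkt included, can be set against the spread between libraries from the values used here. The authors' own test results were not used. By their analysis the study names Tkt among the genes perturbed by depletion of Neurod2.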

Other observations

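The 7 listed genes with no row by the rule were G6pdx, Pdha1, Pdk1, Pfkm, Rpe, Slc16a3 and Slc2a3. Rows overlap each of them, but by at most 0.425 of the union, reached at Pfkm, mostly because the row spans several genes. Values there are given only as those of the row. The single row inside the long annotated span of Slc2a3, the glucose transporter GLUT3 of neurons, had 17.2 FPKM in the knockdown group and 17.7 FPKM in the NS group. The higher of the 2 rows over G6pdx, the rate-limiting enzyme of the oxidative pentose phosphate arm, had 15.9 FPKM in the knockdown group and 16.4 FPKM in the NS group. The higher of the 2 rows over Pfkm, the muscle phosphofructokinase, had 42.6 FPKM in the knockdown group and 44.7 FPKM in the NS group, and the higher of the 2 over Pdha1, the catalytic subunit of pyruvate dehydrogenase, 58.1 FPKM in the knockdown group and 54.7 FPKM in the NS group. Of the 2 rows over Slc16a3, the lactate exporter MCT4, one had 0.539 FPKM in the knockdown group and 1.38 FPKM in the NS group and the other 32.4 FPKM in the knockdown group and 33.8 FPKM in the NS group.

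Among the transcription factors of sugar metabolism, Mycn had 68.2 FPKM in the knockdown group and 75.5 FPKM in the NS group. Mlx, the partner of the glucose-sensing factors ChREBP and MondoA, had 18.2 FPKM in the knockdown group and 15.6 FPKM in the NS group. Trp53, which induces Tigar, had 17.1 FPKM in the knockdown group and 18.1 FPKM in the NS group. The coactivator Ppargc1a was low, with 2.10 FPKM in the knockdown group and 1.62 FPKM in the NS group. None of these 4 passed 1.5-fold.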
